A study of Homo sapiens with 8 samples.

Results

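The SF3A2 immunoprecipitation was compared between K562 cells with SF3B1 K700E and with wild-type SF3B1. The members were all read clusters listed in either of the 2 SF3A2 tables, 121756 of the 122826 clusters of the whole series. K562 is an erythroleukemia line. It had been engineered to express SF3B1 with a 3xFlag tag, either carrying the K700E substitution or keeping the original sequence, so the tag is common to both groups. The labels do not say whether each line is a single clone. Cells of both groups were grown in the same medium (IMDM with 10% FBS). High molecular weight nuclear extracts were digested with nucleases, and complexes were isolated with an antibody to SF3A2. This antibody makes no distinction between tagged and untagged SF3B1, and complexes with either can enter these libraries. There were 3 libraries per genotype, 6 of the 8 in the series, and inserts were 24 to 55 nt. The 3 libraries of a genotype were represented by 1 pooled table each. No value therefore has an error between libraries, and bracketed ranges below are 95% intervals over clusters or branch points that cover counting error only.

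In the first steps of splicing the U2 snRNP binds the intron branch site, where U2 snRNA pairs around a bulged nucleotide, usually an adenosine, that later attacks the 5′ splice site. SF3B1 closes around this duplex, and SF3A2 is part of the SF3A subcomplex of the same particle. Substitutions in the HEAT repeats of SF3B1, of which K700E is the most common in myeloid neoplasms, are known for the use of cryptic 3′ splice sites a short distance upstream of the regular ones, reached from other branch points.

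Each table lists clusters of protected reads, up to a few predicted branch points in each, and a rank from 1 to 3 for each branch point, with ties. Rank 1 is called the top here. The table for K700E held 253912 branch points in 116273 clusters, and that for wild type held 160905 in 86103. The K700E table was thus 1.35 times as large by clusters. Without read numbers, table size and genotype cannot be told apart where K700E lists more. Cluster identifiers carry 1 of 2 marks of the authors or none, and the marks were kept apart: 71571 clusters were marked as 3′ splice site, 6724 as 5′ splice site, and 43461 had no mark.

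More clusters were listed for both genotypes than for either alone, in each mark. Among clusters listed for 1 genotype, those at 3′ splice sites were mostly gained in K700E and those at 5′ splice sites mostly lost. Over all marks, 35653 clusters were listed for K700E only, which is 29.3% of the clusters in either table, and 5483 for wild type only, which is 4.50%. Among 3′ splice site clusters, 51708 were in both tables, 19069 for K700E only and 794 for wild type only. Of the wild-type 3′ splice site clusters, 98.5% were also listed for K700E (98.4 to 98.6%). The K700E table thus held nearly all 3′ splice sites of the wild-type table and many more. Among 5′ splice site clusters, 3293 were in both tables, 873 for K700E only and 2558 for wild type only. The K700E table held 56.3% of the wild-type 5′ splice site clusters (55.0 to 57.5%).

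The direction of the 5′ splice site clusters ran against the size of the tables. There were 4166 of them in the larger K700E table and 5851 in the smaller wild-type table, a ratio of 0.712. The same ratio was 1.35 for 3′ splice site clusters and 1.49 for clusters with no mark. The 5′ splice site mark was carried by 6.80% of the wild-type clusters and 3.58% of the K700E clusters, while the share of the 3′ splice site mark was nearly equal, 61.0% and 60.9%. Of the clusters listed for wild type only, 46.7% carried the 5′ splice site mark, against 2.45% of those listed for K700E only. Hence nearly as many lost clusters lay at 5′ splice sites as in the other classes together. Of the clusters listed for 1 genotype, the K700E side held 96.0% at 3′ splice sites (95.7 to 96.3%), 88.1% without a mark (87.6 to 88.5%) and 25.4% at 5′ splice sites (24.0 to 26.9%). These 3 intervals did not overlap.

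**Figure D1:**
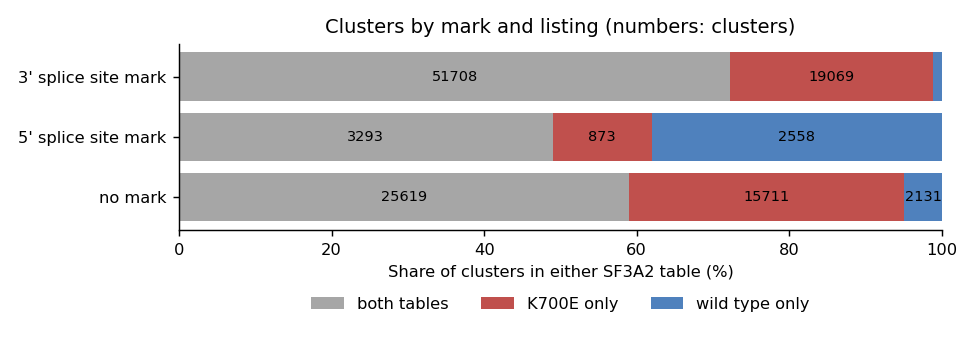
Share of the clusters in either SF3A2 table (x axis, %) that were in both tables, in K700E only or in wild type only, by the authors' mark, with the number of clusters in each block. The wild-type-only block is the widest of the 1-genotype blocks at 5′ splice sites (2558 clusters) and the narrowest at 3′ splice sites (794 clusters, block not numbered).

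The split by mark held on every chromosome with at least 20 clusters of 1 genotype, 23 in number. The K700E share at 5′ splice sites ranged from 8.47% on chromosome 18 to 44.4% on chromosome 21, with a median of 22.5%, and lay below 50% on all 23. For 3′ splice sites it ranged from 93.9% on chromosome 18 to 98.5% on chromosome 21. The chromosomes at both extremes were therefore the same for both marks. Chromosomes are not replicates.

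The first such sites by position on chromosomes 2, 5, 11 and 19 show what was listed. On chromosome 2 (hg19) the first 5′ splice site cluster found for wild type only spanned 3623260 to 3623299, with 1 branch point at 3623282. On chromosome 5 it was 235437 to 235479 with the branch point at 235467, and on chromosome 11 it was 244205 to 244241 with the branch point at 244226. Each had a single branch point and no K700E entry. The reverse also occurred: the 5′ splice site cluster at 247433 to 247472 on chromosome 11, close to the one just given, was listed for K700E only, with the branch point at 247461. The first 3′ splice site clusters for K700E only were 219020 to 219051 on chromosome 2 (branch point 219029) and 206101 to 206133 on chromosome 5 (branch point 206111). For wild type only they were 3687824 to 3687855 on chromosome 2 (branch point 3687842) and 236490 to 236536 on chromosome 5 (branch point 236520).

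The 5′ splice site clusters lay where the downstream end of an exon would be. The tables give no strand, so the cluster end closer to the top branch points was taken as a direction, called the nearer end, and offsets are counted toward it. Of the 5′ splice site clusters with the nearest 3′ splice site cluster at 40 to 300 nt, 3712 were on the nearer-end side of that cluster and 603 on the other, a share of 86.0% (85.0 to 87.0%). This places the exon, in most cases, on the nearer-end side of the branch point. The 5′ splice site cluster itself pointed the same way as that 3′ splice site cluster in 94.8% of cases. The median distance between their branch points was 154 nt, with quartiles of 122 and 193 nt.

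Where a 5′ splice site cluster was lost, the 3′ splice site cluster taken as that of its exon was mostly in both tables. Exons were inferred from distance and nearer end, not from annotation. Among 1419 of the 2558 wild-type-only 5′ splice site clusters with such a 3′ splice site cluster, the latter was in both tables in 1221 cases, or 86.0% (84.1 to 87.8%). It was listed for K700E only in 192 cases and for wild type only in 6. Only 794 of 71571 3′ splice site clusters were for wild type only, so little joint loss could be seen. For 5′ splice site clusters of both tables the share was 85.6% (83.9 to 87.2%), so the intervals overlapped. The distances were also alike, with medians of 153 nt for wild type only, 154 nt for K700E only and 156 nt for both. The top branch point of the accompanying 3′ splice site cluster differed between genotypes in 20.3% (18.1 to 22.7%) beside a lost 5′ splice site cluster and in 18.6% (16.7 to 20.7%) beside a kept one. The intervals for lost and kept 5′ splice site clusters overlapped in both measures of the 3′ splice site.

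**Figure D2:**
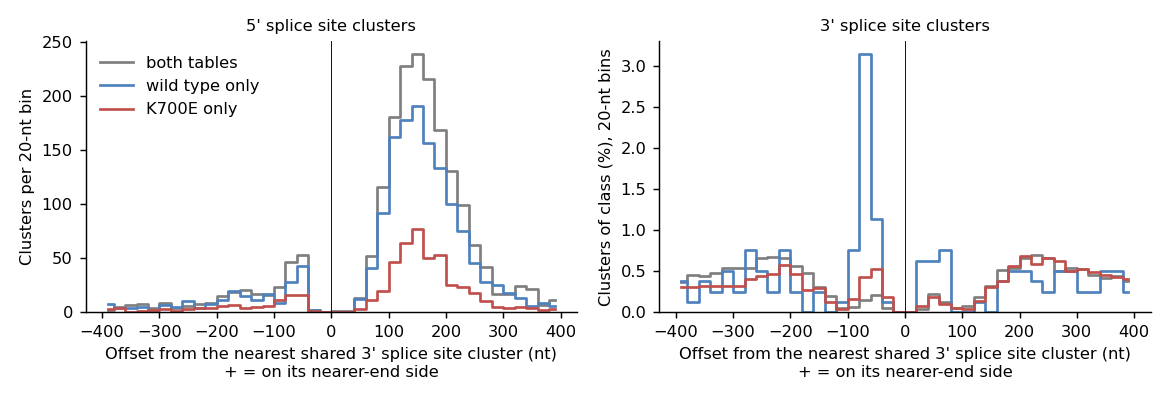
Offset in nt, in bins of 20 nt, from the nearest 3′ splice site cluster listed in both tables, for 5′ splice site clusters (left, number of clusters) and other 3′ splice site clusters (right, % of each class); positive values are on the nearer-end side. The 5′ splice site clusters of all 3 listing classes pile up near 150 nt on the nearer-end side, and 3′ splice site clusters of 1 genotype are more frequent 20 to 100 nt on the other side.

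The Flag tables, made from 1 separate library per genotype with an antibody to the tag, hold few 5′ splice site clusters, and these leaned the same way. They were 336 of the K700E clusters and 589 of the wild-type clusters, or 0.457% and 0.848%. Of those listed for 1 genotype, 153 belonged to K700E and 406 to wild type, so that K700E held 27.4% (23.8 to 31.2%). The interval overlapped that of the SF3A2 tables. For 3′ splice site clusters the Flag share was 56.8% (56.0 to 57.6%) and for clusters without a mark 61.1% (60.2 to 62.0%), far below the values of the SF3A2 tables. The Flag tables were also closer to each other in size, with 73582 clusters for K700E and 69448 for wild type. Table size and antibody cannot be told apart in this contrast.

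The 3′ splice site clusters found for K700E only were spread among those of both tables. Their median distance to the nearest 3′ splice site cluster of both tables was 2320 nt, against 1724.5 nt between the clusters of both tables themselves. Of the 19069, 1687 lay more than 50 kb away, or 8.85% (8.45 to 9.26%), against 2.55% of the clusters of both tables. Along the chromosome, 45.3% stood alone between 3′ splice site clusters of another listing class, and 10.7% were in unbroken runs of 5 or more, the longest of 24. Most gained 3′ splice sites thus lay within 50 kb of one listed for both genotypes, and a smaller number came in runs of 5 or more. The 794 for wild type only stood alone in 87.2% of cases. K700E-only clusters were 26.6% of all 3′ splice site clusters and wild-type-only ones 1.11%. A more frequent class stands alone less often and forms longer runs by number alone. Whether the runs exceeded this was not tested.

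Close to a 3′ splice site of both tables, gained clusters lay mostly on the far side, away from the nearer end and so mostly away from the exon. At 20 to 100 nt, 248 K700E-only 3′ splice site clusters were on that side and 78 on the nearer-end side, or 76.1% on the far side (71.2 to 80.4%). Wild-type-only clusters showed 41 and 16, or 71.9% (59.2 to 81.9%). Between clusters of both tables the numbers were 243 and 231. There, 2 close clusters that point the same way and are nearest to each other add to both sides. These numbers are thus near even by construction and give no baseline. The far-side lean was shared by the 3′ splice site clusters of either genotype alone, whose intervals overlapped. It was also seen in unmarked clusters of both tables, with 65 on the far side and 16 on the other. That is 80.2% (70.3 to 87.5%), in a class that is not paired with itself. Clusters of both tables at 5′ splice sites went the other way, with 125 and 190. The far-side lean was thus not particular to clusters of 1 genotype. Pairs this close were few beside the 19069 gained clusters.

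Length also went with listing. Of 3′ splice site clusters of 34 to 38 nt, 21.9% were for K700E only (21.5 to 22.4%), against 54.9% of those of 25 to 29 nt (53.0 to 56.8%) and 38.2% of those of 46 nt or more (36.1 to 40.4%). The clusters of usual width were therefore the ones most often listed for both genotypes. The K700E-only share of 5′ splice site clusters was 10.7% at 34 to 38 nt and 27.4% at 25 to 29 nt, and the wild-type-only share exceeded it in each length class.

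Clusters without a mark followed the 3′ splice site clusters, except for the shortest. Of all 43461, 15711 were for K700E only and 2131 for wild type only. Those of 15 to 24 nt went the other way, with 354 for K700E only and 762 for wild type only among 4127. The wild-type-only class had a lower quartile of 18 nt in length, against 32 nt in both other classes. It also lay apart more often, with 28.6% more than 50 kb from any 3′ splice site cluster of both tables (26.7 to 30.5%), against 13.9% of the unmarked clusters of both tables. Examples are 1533685 to 1533702 on chromosome 2, with branch points at 1533696, 1533698 and 1533695 in rank order, and 419295 to 419312 on chromosome 19, with 1 at 419300.

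Within clusters listed for both genotypes, K700E had more branch points at 3′ splice sites and fewer at 5′ splice sites. In 51708 shared 3′ splice site clusters K700E listed 2.59 branch points on average and wild type 1.98, a difference of 0.611 (0.604 to 0.619). K700E listed more in 25013 of them and fewer in 2500. The 3293 shared 5′ splice site clusters averaged 1.31 branch points in K700E and 1.51 in wild type. The difference was -0.200 (-0.224 to -0.176), with more in 292 clusters and fewer in 820. A single branch point was listed in 76.3% of these for K700E and in 62.5% for wild type, whereas at 3′ splice sites it was 12.7% and 39.1%. Clusters without a mark resembled the 3′ splice sites, with means of 2.35 for K700E and 1.83 for wild type. In the Flag tables the difference at shared 5′ splice site clusters was -0.0109 (-0.0968 to 0.0750), an interval that includes 0 and rests on 183 clusters. At 3′ splice sites the Flag difference was 0.0491 (0.0412 to 0.0569) and without a mark 0.0808 (0.0691 to 0.0926). Both were far below the SF3A2 values.

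A branch point is called gained where its nucleotide is in the K700E table alone, and lost where it is in the wild-type table alone. Gained ones made up 43.3% of the branch points in either table and lost ones 10.5%. Of the gained, 54.8% lay inside clusters of both tables and the rest in clusters of K700E only. Of the lost, 76.8% lay inside clusters of both tables, but with a split by mark: 93.6% at 3′ splice sites and 34.1% at 5′ splice sites. Most of the branch points lost at 5′ splice sites were thus lost together with their whole cluster. Inside shared clusters, gained exceeded lost branch points at 3′ splice sites (45676 and 14060) and without a mark (20752 and 7320). By contrast, 908 were gained and 1567 lost at 5′ splice sites. The lost share of the wild-type branch points in shared clusters was 13.8% (13.5 to 14.0%) at 3′ splice sites and 31.6% (30.3 to 32.9%) at 5′ splice sites.

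Gained branch points were mostly minor ones, except at 5′ splice sites, where most listed branch points of any kind were tops. Of the branch points gained in shared 3′ splice site clusters, 11.6% had rank 1 in K700E, 41.9% rank 2 and 46.5% rank 3. Among those gained at 5′ splice sites, 55.0% had rank 1. All K700E branch points of shared 5′ splice site clusters numbered 3374 at rank 1, 739 at rank 2 and 194 at rank 3. At 3′ splice sites they numbered 52893, 46288 and 34618. In both marks rank 1 was thus rarer among the gained branch points than among all. Of the lost ones, rank 1 in wild type was held by 18.9% at 3′ splice sites and 41.4% at 5′ splice sites. Examples at 3′ splice sites are 224432 to 224465 on chromosome 5, where the top stayed at 224452 and K700E added 224459 at rank 2 and 224454 at rank 3, and 209232 to 209267 on chromosome 11, where the top stayed at 209254 and K700E added 209257 and 209249. The opposite was seen for 5′ splice sites at 3447648 to 3447686 on chromosome 2, where both tops were at 3447674 and wild type alone had 3447670 at rank 2, and at 6751295 to 6751334 on chromosome 5, where both had 6751322 and wild type alone had 6751318.

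The side on which these branch points lay differed by genotype. Gained branch points were placed against the wild-type top and lost ones against the K700E top, in clusters with 1 top in that table. Of the gained ones at 5′ splice sites, 63.4% lay on the nearer-end side (60.1 to 66.5%) and 30.7% of the lost ones (28.4 to 33.1%). At 3′ splice sites the shares were 51.8% (51.3 to 52.3%) and 45.7% (44.9 to 46.6%), and without a mark 54.2% and 42.8%. In each mark the branch points of K700E alone thus lay more often toward the nearer end than those of wild type alone. Both classes include changed tops, most of all at 5′ splice sites, so these shares partly repeat the moves of the top given below. The median distance of gained and lost branch points from the other genotype's top was 4 or 5 nt in every class.

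**Figure D3:**
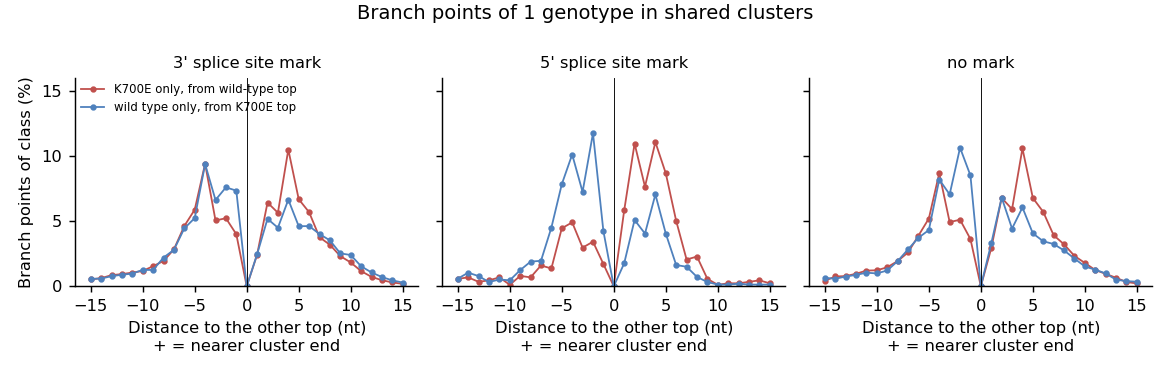
Distance in nt from the other genotype's rank-1 branch point (x axis, positive toward the nearer cluster end) of branch points listed for 1 genotype inside shared clusters, as % of each class (y axis). K700E-only branch points (red) exceed wild-type-only ones (blue) a few nt toward the nearer end, most clearly at 5′ splice sites (63.4% against 30.7% on that side).

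Branch points listed for both genotypes kept their rank in most cases. Of 131022 such branch points, 32941 had another rank, or 25.1%. The share re-ranked was 25.8% at 3′ splice sites (25.5 to 26.1%), 24.5% without a mark (24.1 to 24.9%) and 16.3% at 5′ splice sites (15.1 to 17.5%). At 3′ splice sites 9051 ranked higher in K700E and 13661 lower, so that 39.9% rose (39.2 to 40.5%), whereas at 5′ splice sites 344 ranked higher and 209 lower, or 62.2% (58.1 to 66.2%). In each mark the direction of re-ranking went with the number of branch points per cluster: the genotype with more of them held more of the lower ranks.

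The fate of a wild-type top differed by mark, although the share that stayed top hardly did. Of wild-type rank-1 branch points in shared clusters, 78.7% kept rank 1 in K700E at 3′ splice sites (41927 of 53275), 78.0% without a mark and 75.8% at 5′ splice sites (2579 of 3401). Of those at 3′ splice sites, 13.3% went to rank 2, 2.99% to rank 3, and 4.99% were not listed for K700E. By contrast, at 5′ splice sites 4.62% went to rank 2 and 0.470% to rank 3, and 19.1% were not listed. A top that lost its place was thus mostly kept as a minor branch point at 3′ splice sites and mostly dropped at 5′ splice sites. Where K700E lists a single branch point, a former top cannot be kept at a lower rank. Such clusters were 76.3% of the shared ones at 5′ splice sites and 12.7% at 3′ splice sites, which limits this contrast. Seen from K700E, tops that were absent from wild type made up 10.0% at 3′ splice sites, 11.8% without a mark and 14.8% at 5′ splice sites. Lower ranks were less stable: of wild-type rank-2 branch points at 3′ splice sites 52.5% kept their rank, and of rank 3 39.7%.

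**Figure D4:**
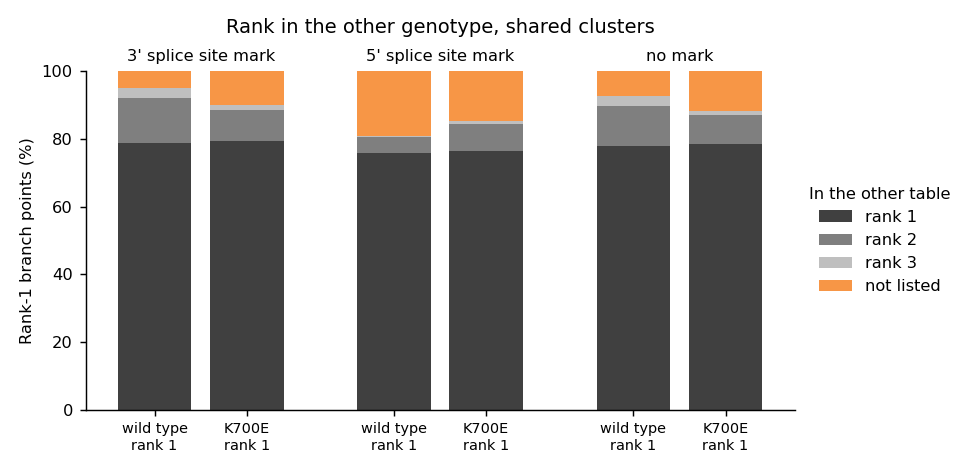
Rank held in the other genotype's table by the rank-1 branch points of shared clusters, in % of those branch points (y axis), for wild-type and K700E tops and each mark. Between 75.8% and 79.3% kept rank 1 in each bar, and at 5′ splice sites 19.1% of wild-type tops were not listed for K700E, against 4.99% at 3′ splice sites.

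The top moved in a minority of clusters. Among 76554 shared clusters with 1 top in each table, the top differed in 14858, or 19.4%. By mark it differed in 19.1% at 3′ splice sites (18.7 to 19.4%), 19.8% without a mark (19.3 to 20.3%) and 22.0% at 5′ splice sites (20.6 to 23.5%). The median move was 4 nt in each mark, and 62.3% of the moves at 3′ splice sites were of 4 nt or less. At 3′ splice sites the 2 tables exchanged ranks 1 and 2 in 3545 of 9374 such clusters, or 37.8%, and each top was absent from the other table in 15.7%. The exchange at 5′ splice sites accounted for 10.1% and the absence from both for 52.8%. Changed tops at 3′ splice sites were hence more often a re-ranking of listed branch points, and at 5′ splice sites more often a replacement. Clusters with a single branch point, more frequent at 5′ splice sites, cannot exchange ranks. This contrast therefore follows in part from the number of branch points listed, and the marks were not compared at equal numbers.

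The K700E top lay closer to the nearer cluster end than the wild-type top more often than farther from it, in 59.0% of the changed clusters with a direction. Among 3′ splice site clusters 5417 moved toward that end and 3887 away, or 58.2% (57.2 to 59.2%). Without a mark the share was 58.9% (57.5 to 60.3%), and at 5′ splice sites 479 moved toward it and 200 away, or 70.5% (67.0 to 73.9%). The lean was thus present in each mark and was greater at 5′ splice sites, whose interval overlapped neither of the others. For moves of 1 to 4 nt the share was 64.9% at 3′ splice sites and 73.4% at 5′ splice sites. For longer moves it was 47.1% (45.4 to 48.7%) and 66.9% (61.3 to 72.0%), so that by this measure the long moves leaned opposite ways in these 2 marks. In a long move the tops can lie on both sides of the cluster middle. The nearer end then rests on their mean. Long moves were not oriented apart by the top of either genotype. On all 23 chromosomes with at least 20 changed 3′ splice site clusters the share was above 50%, from 51.6% to 63.3%.

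**Figure D5:**
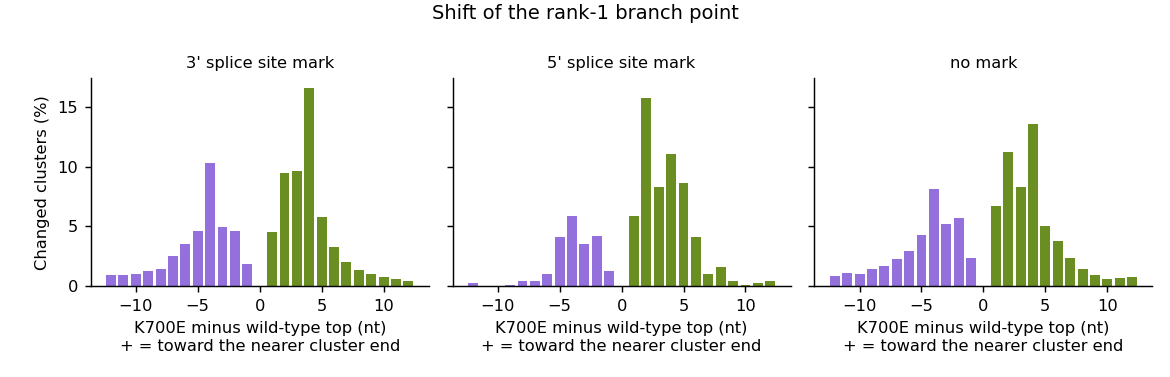
Distribution of the shift of the rank-1 branch point from wild type to K700E in nt (x axis, positive toward the nearer cluster end, shown to 12 nt) as % of the clusters with a changed top (y axis), by mark. Positive shifts of 1 to 4 nt outnumber negative ones in each panel, and negative shifts of 7 to 12 nt, seen at 3′ splice sites, are rare at 5′ splice sites.

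The lean was also seen in the subsets of changed clusters that could be oriented by other clusters. One orientation used the 5 nearest 3′ splice site clusters with an unchanged top, of which at least 4 pointed the same way. Among 5917 changed clusters of all marks the share toward the side given by these neighbours was then 58.2% (56.9 to 59.4%). The neighbours were themselves directed by their nearer ends. This orientation matched the nearer end in 22716 of 23910 unchanged clusters. When 740 changed 3′ splice site clusters were oriented by a 5′ splice site cluster at 40 to 300 nt, the share was 59.1% (55.5 to 62.5%). This second orientation matched the nearer end in 84.6% of unchanged clusters. Both were chosen after seeing the data. Tops at most 9 nt from the nearer end made up 9.31% of the 3′ splice site clusters for K700E and 7.52% for wild type. In 5′ splice site clusters the shares were 8.11% and 6.02%.

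Single sites show these moves. At the 3′ splice site cluster 675642 to 675676 of chromosome 2 the wild-type top at 675655 went to rank 2 in K700E, with the top at 675651, 4 nt closer to the nearer end, which is the start. At 307546 to 307581 of chromosome 19 the single branch point was 307556 for K700E and 307560 for wild type, again 4 nt closer to the start, and neither was listed in the other table. A longer move away from the nearer end was listed at 468924 to 468977 of chromosome 5, from 468964 to 468948, with 468964 kept at rank 2. At 5′ splice sites, 811628 to 811663 of chromosome 11 had 811653 for K700E and 811649 for wild type, 4 nt closer to the end. The cluster 11943133 to 11943180 of chromosome 2 had its top at 11943149 with 11943171 at rank 2 in wild type, and only 11943171, 22 nt closer to the end, in K700E.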

How the data were processed

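Immunoprecipitated RNA fragments were sequenced from K562 cells. The submitters' processing notes name STAR 2.7.6a, cutadapt and the build hg19. How the authors called, pooled and marked clusters and predicted and ranked branch points is unstated there and in the labels. Per the file headers, each deposited table gives a cluster, its coordinates, a branch point and the score deposited as its rank, 1 to 3 with ties. Whether positions count from 0 or 1 is unknown. The extract protocol mentions HEK293 in describing the read layout, and all other labels give K562. For SF3A2 K700E, 1 row without a cluster identifier was left out.

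The comparison used pandas 2.3.3 and numpy 2.4.6 under Python 3.11.15, with matplotlib 3.10.9 for plots. Clusters were matched by identifier and branch points by cluster and nucleotide. The counting was checked on a copy of the wild-type table with known changes put in. Wilson intervals at the 95% level (normal intervals for differences of means) treat clusters as independent and cover counting error only. Values per library, read numbers and depth are not in the tables, so no test was run and no p-value computed, and shares have no detection limit. The planned base composition and gene lists were not analysed, since the reference at hand was of another build than hg19. Named sites were the first by start on chromosomes 2, 5, 11 and 19 in each class, up to 4 a class. The members, lists and classes were chosen with earlier results of these data known, and the split by 5′ splice site mark after seeing the files. Alternatives covered matching tolerance, cluster length, ranks, orientation and chromosomes.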

Additional observations from a re-analysis of the deposited data

How the results depend on the processing

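No result crossed 50% or changed sign under any of the 48 alternatives, of which 22 gave values inside the interval of the reported value or within 1.5 times the reported count. Shared wild-type branch points rose to 84.0% and 87.7% when matched within 1 and 2 nt, and were 73.4% for rank 1 alone. Lost branch points in shared clusters fell to 12838 within 2 nt. Re-ranking was 25.5% in clusters with the same number of branch points and 23.9% with the same branch points. Changed tops were 18.0% and 15.0% when moves up to 1 and 2 nt were ignored, and 17.9% at the same number of branch points. The share toward the nearer end was 62.7% in clusters of 30 to 38 nt and 60.8% with the same branch points. It was 52.1% when oriented by the wild-type top, 68.4% by the K700E top and 58.2% by neighbouring clusters. An orientation by 1 genotype's own top favours that genotype by construction. In clusters of 30 to 38 nt the difference in branch points per cluster was 0.572 over all marks, 0.589 at 3′ splice sites, -0.174 at 5′ splice sites and 0.590 without a mark (0.614 from 25 nt up). There the K700E share of clusters of 1 genotype was 96.6% at 3′ splice sites, 21.8% at 5′ splice sites and 93.6% without a mark. Without a mark it was 91.8% from 25 nt up and 89.9% within 10 kb of a shared 3′ splice site cluster. With 1 branch point it was 94.0% at 3′ splice sites and 86.5% without a mark. The causes of the other moves were not tested. No paired analysis was possible because the 3 libraries of a genotype are pooled in 1 table, and leaving out a replicate was not run for the same reason. Depth is unknown.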

Other observations

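The 5′ splice site clusters found for wild type only were spread over 1722 of the 3032 intervals of 100 kb that held any 5′ splice site cluster, and 1205 of these held 1. Of the 2558, 33.7% stood alone between 5′ splice site clusters of another listing class, and 13.7% lay in unbroken runs of 5 or more, the longest of 11. The intervals with the most were named after their values were seen. The interval of chromosome 1 from 19.4 to 19.5 Mb held 8 for wild type only, 2 for K700E only and 7 of both tables. On chromosome 22 from 21.1 to 21.2 Mb there were 8 for wild type only, 0 for K700E only and 4 of both. By whole chromosome, after 18, the lowest K700E share of 5′ splice site clusters of 1 genotype was on chromosome 22, at 12.1% (7.24 to 19.7%, 13 against 94 clusters), and after 21, the highest was on chromosome 8, at 40.6% (31.7 to 50.1%).

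Clusters with tied tops were slightly less frequent in K700E. Of the shared clusters, 2.25% had more than 1 rank-1 branch point in the K700E table and 2.94% in the wild-type table. Clusters of 1 genotype held fewer branch points than shared ones, with a mean of 1.56 in K700E-only and 1.27 in wild-type-only clusters. For wild type only, the mean was 1.19 at 5′ splice sites and 1.38 without a mark.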
